A study of Homo sapiens with 16 samples.

Results

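Human chromosome 4 is one of the large chromosomes with few genes for its length, and it was followed here through 4 lengths of restriction digestion. Its members were all 20 kb bins of chromosome 4 (build hg19) that were present in all 8 contact maps of the second sequencing run. That rule used no contact value and left 9296 of the 9558 bins of the chromosome, out of 137218 such bins in the whole genome. The longest stretch with no bin was chr4:49620001-52680000, 3.06 Mb across the centromere. In the RefSeq annotation of a later assembly chromosome 4 carries 770 protein-coding genes, or 4.03 per Mb, the third lowest density of 23 chromosomes. Chromosome 3, with 1066 genes and 9665 bins, and chromosome 5, with 904 genes and 8740 bins, are of like size and served for comparison.

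All libraries came from K562, an established human leukaemia line whose chromosomes are rearranged and present in unequal copy numbers. Hi-C was done in nuclei: cells were fixed with formaldehyde, DNA was cut with the restriction enzyme HindIII, the cut ends were filled with a biotin-carrying nucleotide, and ends lying close together were ligated and sequenced as pairs. Digestion lasted 0.25, 1, 3 or 12 h, and each time had 2 replicates; no other agent or genotype distinguished the groups. The series gives as its purpose that brief digestion should pick out the domain boundaries that the enzyme reaches most easily, so the comparisons ask what changed on chromosome 4 as digestion went on.

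Each chromosome occupies a territory of its own in the nucleus, so most ligations join DNA of the same chromosome (cis) rather than of different ones (trans). Within a territory, contact frequency falls with distance, segments of active and of inactive chromatin keep apart as A and B compartments, and insulated boundaries divide the fibre into domains. Gene-poor chromosomes are known to lie preferentially towards the nuclear edge, and small gene-rich chromosomes towards the interior.

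Whole contacts were recovered from the deposited balanced signal, and 62672849 to 176076554 of them per library were used. Between 5204455 and 14144412 of them had an end on chromosome 4, fewest in 0.25 h replicate 2 and most in 12 h replicate 1. A chromosome 4 bin held a median of 1580 contacts outside itself per library, against 1301 for all bins. The labels do not say whether replicates were separate cultures, so p-values measure the spread between these libraries only. Trends are given as Spearman's rho with log2 hours over 8 libraries, with an exact two-sided permutation p. Differences are chromosome 4 minus the mean of chromosomes 3 and 5 in the same library, with an exact two-sided sign-flip permutation test whose smallest possible p is 0.00781. Benjamini-Hochberg adjusted values are over the 8 measures of each family.

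Chromosome 4 kept more of its contacts to itself than chromosomes of like size, and this cis share fell as digestion went on. Of all contacts with an end on chromosome 4, 85.9% and 85.5% stayed within it in replicates 1 and 2 at 0.25 h, 85.1% and 84.8% at 1 h, 84.96% and 84.4% at 3 h, then 83.0% and 82.7% at 12 h. Both 12 h libraries lay below all others, while the 1 h and 3 h libraries overlapped. The trend had rho = −0.93 (exact permutation p = 0.00317, adjusted 0.00423). The mean over 8 libraries was 84.5%, second of 23 chromosomes behind chromosome 2 at 84.6%, and chromosome 4 ranked highest in 5 of 8 libraries. It exceeded chromosomes 3 and 5 by 2.09 ± 0.132 percentage points (SD, n = 8), in 8 of 8 libraries (exact permutation p = 0.00781, adjusted 0.00781), with 2.42 points over chromosome 3 and 1.76 over chromosome 5. Pairs of 1 Mb bins over 5 times expectation held 4.92% of the trans contacts of chromosome 3, 1.05% of those of chromosome 5 and 0.394% of those of chromosome 4. The cis share was not computed without such pairs, and their part in the lead was not tested. From 0.25 to 12 h the cis share of chromosome 4 fell by 2.87 points, that of chromosome 3 by 3.21 and that of chromosome 5 by 3.17, so the lead over them grew (rho = 0.88, exact permutation p = 0.0103, adjusted 0.0165).

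Leaving out contacts inside a bin weakened both trends of the cis share. The shares of chromosome 4 then ran from 82.9% and 81.7% at 0.25 h to 81.1% and 80.8% at 12 h, with both 12 h libraries still below all others (rho = −0.68). This trend missed the threshold when times were permuted over all libraries (exact permutation p = 0.0825) and passed it when they were permuted within replicate numbers (exact permutation p = 0.0347). The lead over chromosomes 3 and 5 then had no trend that passed either test (rho = 0.10, exact permutation p = 0.861, and 0.865 within replicate numbers).

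The self-bin share, the part of cis contacts with both ends in the same 20 kb bin, was lower on chromosome 4 than on any of the other 22 chromosomes in 8 of 8 libraries. It was 20.6% and 24.5% at 0.25 h, 19.2% and 19.7% at 1 h, 18.4% and 18.4% at 3 h, then 12.0% and 11.9% at 12 h. The 0.25 h replicates differed by more than 1 h from 3 h, and the 12 h libraries stood well below the rest. The share fell with time (rho = −0.98, exact permutation p = 0.000794, the smallest p these arrangements can give, adjusted 0.00159). Over 8 libraries its mean was 18.1%, with chromosome X next at 18.7% and chromosome 19, the most gene-dense chromosome, highest at 29.6%. Against chromosomes 3 and 5 the share was lower by 1.09 points (mean difference −1.09 ± 0.186, SD, n = 8; exact permutation p = 0.00781, adjusted 0.00781). That gap narrowed with time (rho = 0.98, exact permutation p = 0.000794, adjusted 0.00317). With all contacts as denominator the mean difference was −0.52 points, and on the deposited balanced signal it was −0.50 points. In relative terms the falls from 0.25 to 12 h were close to each other, by 47.0% on chromosome 4, 46.2% on chromosome 3 and 46.5% on chromosome 5.

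**Figure D1:**
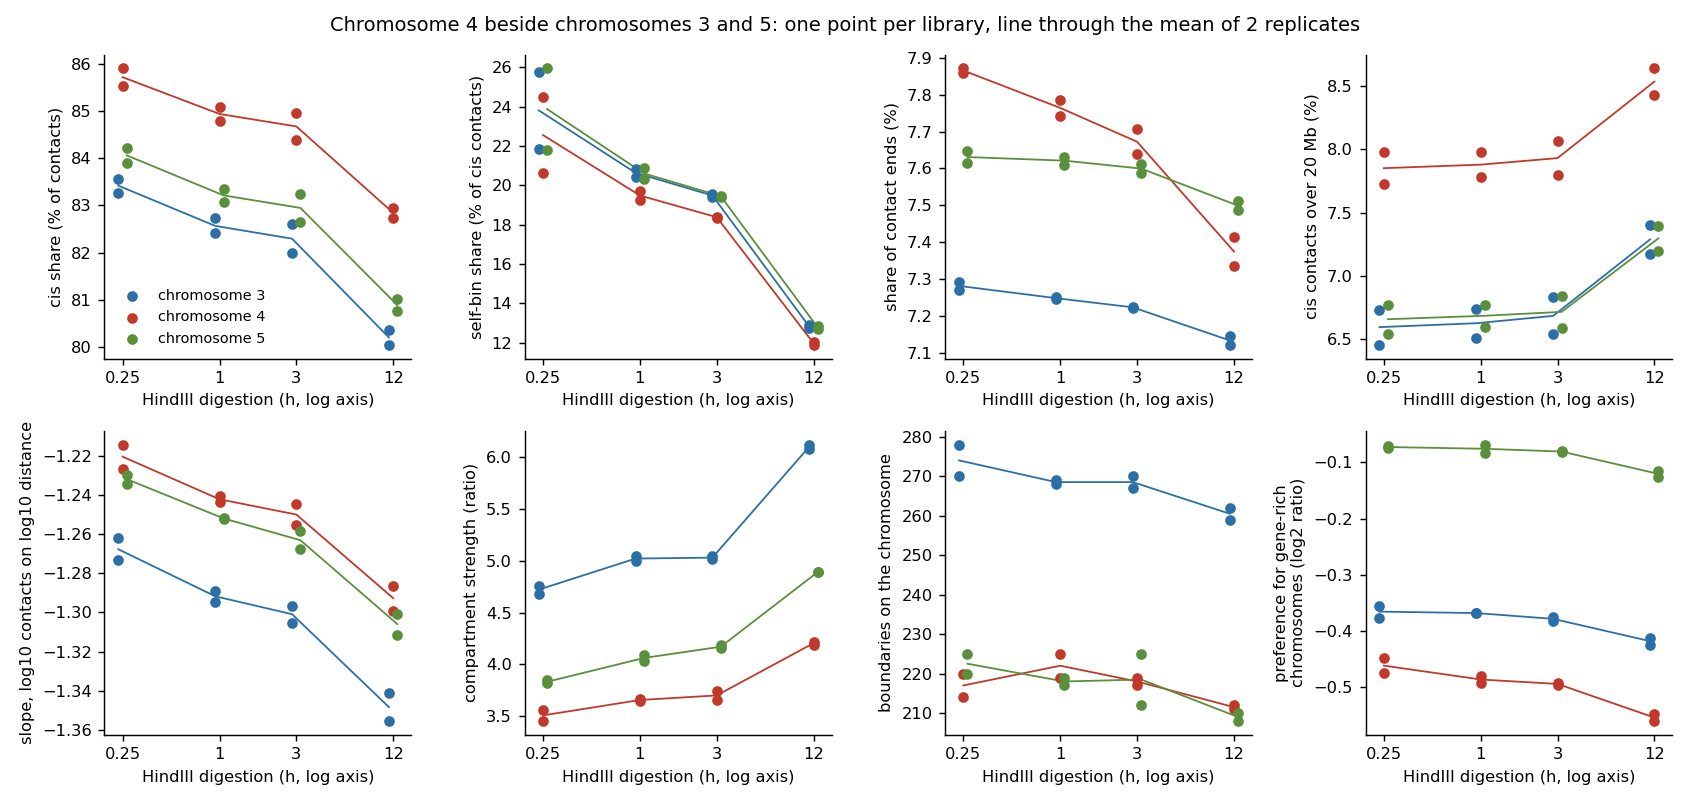
Measures of chromosomes 3, 4 and 5 against hours of digestion (log axis), with a point per library and lines through the means of 2 replicates; each vertical axis is labelled with its own unit. Chromosome 4 lies above chromosomes 3 and 5 in cis share and in cis contacts over 20 Mb, and below them in self-bin share, compartment strength and preference for gene-rich chromosomes, in all 8 libraries.

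Cis contacts of chromosome 4 reached farther than those of chromosomes 3 and 5. The far cis share, the part of cis contacts between different bins that spanned over 20 Mb, was 7.72% and 7.98% at 0.25 h, 7.78% and 7.98% at 1 h, 7.79% and 8.07% at 3 h, then 8.43% and 8.64% at 12 h. Replicate 2 was the higher of each pair, and only the 12 h pair lay clear of the other times. The excess over chromosomes 3 and 5 was 1.23 ± 0.00815 points (SD, n = 8; 8 of 8 libraries, exact permutation p = 0.00781, adjusted 0.00781). Among 23 chromosomes the mean of 8.05% was second to the 8.48% of chromosome 2, which is longer. The rise with time (rho = 0.78, exact permutation p = 0.0349, adjusted 0.0399) and the growth of the excess (rho = 0.83, exact permutation p = 0.0198, adjusted 0.0265) rested on the 12 h libraries. Without those, rho was 0.48 for the rise and 0.60 for the excess. In the first run, in 50 kb bins, the excess had a rho of −0.10 (exact permutation p = 0.861) and the rise one of 0.73 (exact permutation p = 0.0548).

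Distance classes showed where the excess lay. Per possible pair of bins, the frequency on chromosome 4 divided by the mean of chromosomes 3 and 5 was 0.929 at 0.02 to 0.1 Mb, 0.940 at 0.1 to 0.5 Mb and 0.992 at 0.5 to 2 Mb. It then passed 1, with 1.05 at 2 to 10 Mb, 1.09 at 10 to 20 Mb, 1.20 at 20 to 50 Mb and 1.15 at 50 to 100 Mb, and fell to 0.829 at 100 to 200 Mb. In the last class chromosome 4 was below chromosome 3 and above chromosome 5, whose shares of cis contacts were 0.899% and 0.409% against 0.523%. The 8 differences in share of cis contacts each had the same sign in 8 of 8 libraries (exact permutation p = 0.00781, adjusted 0.00781). These shares are not divided by the number of possible pairs, and at 0.5 to 2 Mb the share of chromosome 4 was higher by 0.1502 points although its frequency per pair was below 1 relative to the others. Within chromosome 4 the share at 0.1 to 0.5 Mb rose from 22.4% and 22.3% at 0.25 h to 23.8% and 23.6% at 12 h (exact permutation p = 0.000794, adjusted 0.00635), and the share at 2 to 10 Mb fell from 15.98% and 16.3% to 14.955% and 15.3% (exact permutation p = 0.00317, adjusted 0.0127).

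**Figure D2:**
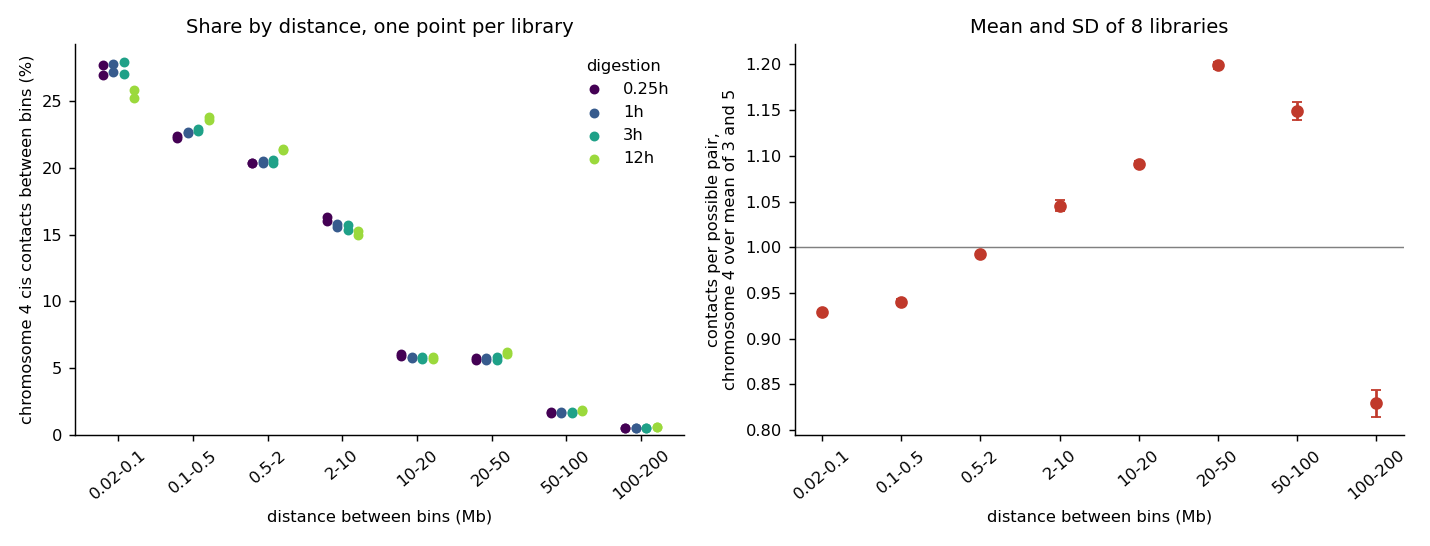
Left, percent of chromosome 4 cis contacts between different bins in 8 classes of distance (Mb), with a point per library coloured by digestion time. Right, contacts per possible pair on chromosome 4 over the mean of chromosomes 3 and 5 (mean and SD of 8 libraries), which is below 1 under 2 Mb, reaches 1.20 at 20 to 50 Mb and is 0.829 at 100 to 200 Mb.

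The decay slope, that of log10 contact frequency on log10 distance from 0.5 to 10 Mb, became steeper with digestion. It was −1.23 and −1.21 at 0.25 h, −1.24 and −1.24 at 1 h, −1.26 and −1.24 at 3 h, then −1.30 and −1.29 at 12 h (rho = −0.98, exact permutation p = 0.000794, adjusted 0.00159). Chromosome 4 had a shallower slope than chromosomes 3 and 5 by 0.0313 ± 0.00252 (SD, n = 8; 8 of 8 libraries, exact permutation p = 0.00781, adjusted 0.00781), of which 0.0508 was against chromosome 3 and 0.0119 against chromosome 5. This difference widened with time over 0.5 to 10 Mb (rho = 0.78, exact permutation p = 0.0349, adjusted 0.0399), a call lost in the first run (rho = 0.73, exact permutation p = 0.0548). The call was also lost on the deposited balanced signal (rho = 0.68, exact permutation p = 0.0825), where the mean difference was 0.0194. With each library left out in turn rho ran from 0.68 to 0.97. Measured over 1 to 30 Mb, the slope of chromosome 4 itself had no trend that passed the test (rho = −0.15, exact permutation p = 0.761), and the difference narrowed (rho = −0.93, exact permutation p = 0.00317).

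Leaving out times gives the same picture for most trends of chromosome 4. Without the 0.25 h libraries Pearson's r with log2 hours was −0.92 for the cis share, −0.95 for the self-bin share and −0.93 for the decay slope, and without the 12 h libraries it was −0.88, −0.83 and −0.92. With all 8 libraries the r values were −0.94 (exact permutation p = 0.00159), −0.93 (exact permutation p = 0.000794) and −0.95 (exact permutation p = 0.000794). For the far cis share r was 0.78 with all libraries (exact permutation p = 0.0198), 0.86 with 0.25 h left out and 0.25 with 12 h left out.

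Chromosome 4 lost ground to the other chromosomes as digestion went on. Of all contact ends outside their own bin on chromosomes 1 to 22 and X, the share of chromosome 4 was 7.86% and 7.87% at 0.25 h, 7.79% and 7.74% at 1 h, 7.71% and 7.64% at 3 h, then 7.41% and 7.34% at 12 h. No 2 times overlapped (rho = −0.98, exact permutation p = 0.000794, adjusted 0.00159; Pearson's r −0.95, and −0.96 without the 0.25 h or without the 12 h libraries). Relative to 0.25 h the share fell by 6.24%, the deepest fall of 23 chromosomes, with chromosome 13 next at −4.35%. Chromosome 3 fell by 2.03% and chromosome 5 by 1.73%, and the difference from them shrank (rho = −0.98, exact permutation p = 0.000794, adjusted 0.00317). The level itself exceeded the mean of chromosomes 3 and 5 by 0.264 ± 0.141 points (SD, n = 8; exact permutation p = 0.00781, adjusted 0.00781). That excess was over chromosome 3, by 0.447 points in 8 of 8 libraries, while against chromosome 5 it was 0.0814 points in 6 of 8 (exact permutation p = 0.156). Counting trans contacts only, chromosome 4 held a smaller share than the mean of the pair, by −0.71 points (exact permutation p = 0.00781). Levels depend on copy number in this line as well as on contacts per copy, and the 2 cannot be told apart here.

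Bin by bin, 3577 of the 9296 chromosome 4 bins (38.5%) held a larger part of their library's contacts at 0.25 h than at 12 h and 1330 (14.3%) a smaller part, by limma's moderated test on the log2 counts-per-million (CPM) scale of contacts leaving the bin, at an adjusted p under 0.05 over all 137198 bins. Over the whole genome the split ran the other way, with 20.8% of bins higher and 35.0% lower at 0.25 h. The median log2 difference, 0.25 h over 12 h, was 0.06 on chromosome 4 and −0.05 over all bins, and chromosome 4 had the highest median of 23 chromosomes. Chromosome 3 had 25.8% of bins higher and 24.9% lower, and chromosome 5 had 24.5% higher and 28.5% lower.

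The split depended on the scaling, and the position of chromosome 4 relative to all bins kept its sign. With median-of-ratios scaling 49.2% of chromosome 4 bins were higher and 9.64% lower, against 28.1% and 27.6% of all bins, with medians of 0.11 and 0.00. With self-bin contacts included the median of chromosome 4 was −0.02, with 28.8% of bins higher and 28.4% lower, and that of all bins was −0.12, with 19.5% higher and 46.0% lower. Trans contacts alone, of which the median chromosome 4 bin held 152 per library, gave calls in 5.82% of chromosome 4 bins against 6.26% of all bins.

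Between neighbouring times limma called bins only from 3 to 12 h. The median difference over chromosome 4 bins was positive in each step, but this median was not tested. As log2, earlier over later time, it was 0.0109 from 0.25 to 1 h, 0.0167 from 1 to 3 h and 0.0354 from 3 to 12 h. From 3 to 12 h limma called 24.4% of chromosome 4 bins higher at the earlier time and 9.63% lower, against 14.3% and 24.2% of all bins. Between 0.25 and 1 h and between 1 and 3 h limma called 0 bins (0.0% of all bins), with 890 and 589 chromosome 4 bins at an unadjusted p under 0.05 against 13638 and 8004 of all bins. These steps were not fitted with replicate number as a block.

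The excess on chromosome 4 was seen at each level of contacts per bin. When all bins were put into 10 classes of rising contact number, the median log2 difference of chromosome 4 bins exceeded that of bins on other chromosomes in each class, by 0.07 to 0.14. In the lowest class it was −0.21 against −0.34, and in the highest 0.19 against 0.11. In the same classes chromosome 3 stood at −0.23 and 0.10, and chromosome 5 at −0.30 and 0.12.

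**Figure D3:**
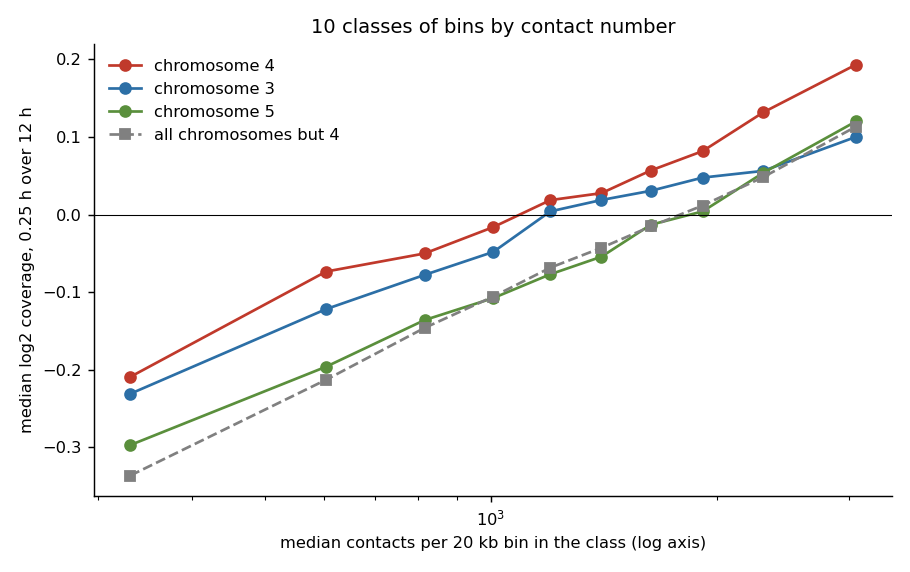
Median log2 difference in bin coverage, 0.25 h over 12 h, in 10 classes of bins by mean contacts per bin, for chromosomes 3, 4 and 5 and all other chromosomes. The points of chromosome 4 run from −0.21 in the lowest class to 0.19 in the highest and lie above those of the other chromosomes throughout.

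Along chromosome 4 the change was uneven, and its short arm tip went against the rest. On the long arm 44.5% of 6884 bins were higher at 0.25 h and 7.38% lower, whereas on the short arm 21.4% of 2412 bins were higher and 34.1% lower. The first 10 Mb of the short arm, 457 bins nearly all in compartment class 1 (defined with the compartments), had 2 bins higher (0.438%) and 399 lower (87.3%), with a median log2 difference of −0.41. Bins there held a median of 611 contacts per library against 1616 on the remainder of the chromosome. For the first 5 Mb the median bin held 2.58 and 2.52 CPM at 0.25 h, 2.74 and 2.65 at 1 h, 2.74 and 2.85 at 3 h, then 3.51 and 3.58 at 12 h, so the step lay between 3 and 12 h. Without this tip 40.4% (8839 bins in all) were higher and 10.5% lower, with a median of 0.07. The short arm beyond the tip had 26.3% of 1955 bins higher and 21.6% lower, with a median of 0.01. The first 10 Mb of chromosome 3 had 10.9% higher and 41.8% lower, and those of chromosome 5 had 2.65% higher and 66.6% lower.

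The opposite end of the range lay in the middle of the long arm. In the window from 130 to 135 Mb, 64.6% of bins were higher at 0.25 h and 2.03% lower, with a median log2 difference of 0.16 and 4.00% of its 200 kb bins in class 1. The median bin of that window held 9.26 and 9.02 CPM at 0.25 h, 9.15 and 8.82 at 1 h, 8.79 and 8.55 at 3 h, then 8.28 and 8.14 at 12 h. With single bins between called ones bridged, called bins made 932 runs of higher bins and 511 of lower bins. Most runs were short, with medians of 40 and 20 kb. The longest were chr4:137940001-138960000 for higher bins (44 called bins over 1020 kb) and chr4:6960001-9120000 for lower bins (99 called bins over 2160 kb). Runs were not counted on other chromosomes.

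**Figure D4:**
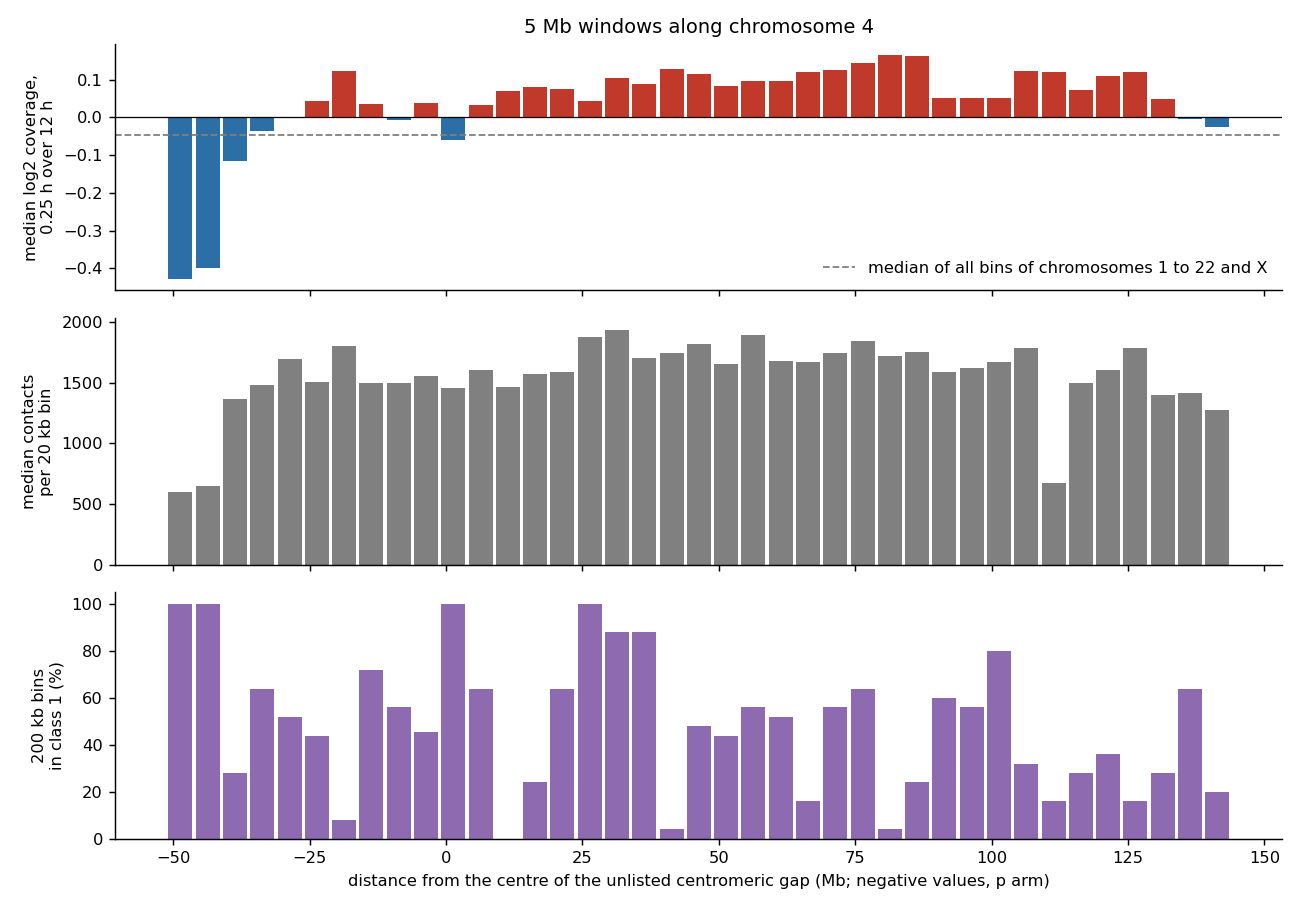
Windows of 5 Mb along chromosome 4 by distance from the centre of the centromeric gap in Mb (negative on the short arm), with the median log2 difference in bin coverage, 0.25 h over 12 h (dashed line, median of all bins), the median contacts per 20 kb bin and the percent of 200 kb bins in class 1. The leftmost windows, at the short arm tip, have medians of −0.43 and −0.40 and few contacts; a dip in contacts alone marks the window from 160 to 165 Mb.

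The 5 called bins with the lowest log2 differences, 0.25 h over 12 h, at most 1 per Mb, held a larger part of their library's contacts at 12 h. All lay in the first 10 Mb of the short arm and all in class 1. The bin chr4:880001-900000 held 1.05 and 0.995 CPM at 0.25 h, 1.03 and 1.20 at 1 h, 1.15 and 1.37 at 3 h, then 2.19 and 2.09 at 12 h. Its times up to 3 h overlapped and the 12 h pair stood above them, a log2 difference of −1.06 (SE 0.107, limma adjusted p = 7.27e-08). The bin chr4:2360001-2380000 went from 2.22 and 2.15 at 0.25 h through 2.28 and 2.26 at 1 h and 2.53 and 2.80 at 3 h to 4.00 and 4.104 at 12 h (log2 difference −0.89, SE 0.0724, limma adjusted p = 6.70e-09). The lowest difference, −1.07, was at chr4:8460001-8480000, a bin of 45 to 314 contacts per library, and the others were chr4:7420001-7440000 (−0.95) and chr4:3560001-3580000 (−0.92). In trans contacts alone the last of these missed the threshold (limma adjusted p = 0.187).

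The 5 called bins with the highest log2 differences held a smaller part of their library's contacts at 12 h than at 0.25 h. All lay on the long arm, and 4 of the 5 in class 1. The bin chr4:123900001-123920000 held 4.01 and 4.07 CPM at 0.25 h, 3.88 and 3.56 at 1 h, 3.40 and 3.06 at 3 h, then 2.37 and 2.29 at 12 h. No 2 times overlapped, and the log2 difference was 0.79 (SE 0.0696, limma adjusted p = 1.57e-08). The bin chr4:164120001-164140000 fell from 10.4 and 12.4 at 0.25 h to 7.03 and 6.43 at 12 h (log2 difference 0.76, SE 0.0596, limma adjusted p = 4.64e-09). The remaining bins were chr4:147540001-147560000 (0.67), chr4:173320001-173340000 (0.63), the bin in class 2, and chr4:151240001-151260000 (0.61). These 3 missed the threshold in trans contacts alone (limma adjusted p = 0.293, 0.0867 and 0.144). The number of HindIII sites per bin was not analysed here.

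A stretch of the long arm, picked out after its values were seen, held few contacts at all times. The 155 bins of chr4:160440001-163600000 (3.16 Mb) had a median of 524 contacts per library, against 1758 in the 3 Mb to either side. The ratio to those flanks was 0.308 ± 0.00685 for cis contacts and 0.265 ± 0.00403 for trans contacts (SD, n = 8), with a range over libraries of 0.294 to 0.314 in cis and 0.260 to 0.270 in trans. Its median log2 difference between 0.25 and 12 h, 0.10, was near the 0.13 of the flanks. The low level was thus present at each time, and whether it reflects fewer copies was not tested.

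Self-contacts per bin fell over most of the chromosome, in much the same share of bins as over the genome. For the ratio of self-bin to other cis contacts, limma called 68.6% of chromosome 4 bins higher at 0.25 h than at 12 h against 66.7% of all bins, with a median log2 difference of 0.83 against 0.82. It called 6 bins lower (0.0645%, against 0.0714% of all bins). With each library centred on its own median over the genome, an alternative chosen after the data were seen, 18.5% of chromosome 4 bins were higher and 5.56% lower, against 18.4% and 7.40% of all bins. From 0.25 to 1 h and from 1 to 3 h limma called 0 bins (0.0% of all bins), with 1568 and 248 chromosome 4 bins at an unadjusted p under 0.05 against 25250 and 4616 of all bins. From 3 to 12 h it called 59.9% of chromosome 4 bins higher at the earlier time, against 57.0% of all bins, and 1 bin lower (0.0423% of all bins).

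The steepest loss of self-contacts was at chr4:1500001-1520000, near the tip of the short arm. That bin held 110 and 90 self-contacts at 0.25 h, 80 and 52 at 1 h, 55 and 56 at 3 h, then 13 and 9 at 12 h, although the 12 h libraries were the deepest, while its other cis contacts went from 144 and 70 at 0.25 h to 387 and 317 at 12 h. The log2 difference of the ratio was 4.88 (SE 0.242, limma adjusted p = 3.88e-05). The next were chr4:59320001-59340000 (4.22) and chr4:188480001-188500000 (4.102). Among the 6 that went the other way, chr4:61760001-61780000 had 1 and 0 self-contacts at 0.25 h, 9 and 6 at 1 h, 6 and 7 at 3 h, then 13 and 9 at 12 h (log2 difference −1.88, SE 0.455, limma adjusted p = 0.00449). At these counts the size of the change depends on the prior count of 1. The others named by rule were chr4:11780001-11800000 (−1.60) and chr4:49160001-49180000 (−1.19).

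Compartments of chromosome 4 were less sharply separated than those of chromosomes 3 and 5, and the separation sharpened with digestion. Compartment classes were the 2 signs of the first eigenvector of cis contacts in 200 kb bins over all libraries added. Class 1 was the sign with more trans contacts to gene-rich chromosomes, so that preference is fixed by the definition. Class 1 held 48.6% of 938 bins of chromosome 4, against 52.9% on chromosome 3 and 51.4% on chromosome 5. Chromosome 4 had 46 class 1 segments with a median of 1.2 Mb and 43 class 2 segments with a median of 1.8 Mb. Chromosome 3 had 49 of each class, with medians of 0.8 and 1.4 Mb, and chromosome 5 had 50 and 49, with medians of 1.0 and 1.2 Mb.

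Compartment strength, the mean observed over expected contact inside the top 20% and inside the bottom 20% of eigenvector values, divided by that between these extremes, was 3.56 and 3.45 at 0.25 h, 3.66 and 3.65 at 1 h, 3.74 and 3.66 at 3 h, then 4.22 and 4.19 at 12 h. The 12 h libraries lay apart from the others, and those of 1 h and 3 h were interleaved (rho = 0.93, exact permutation p = 0.00317, adjusted 0.00423). As Pearson's r the trend was 0.91 with all libraries (exact permutation p = 0.00159), 0.92 with 0.25 h left out and 0.88 with 12 h left out. The strength was lower than on chromosomes 3 and 5 in 8 of 8 libraries (mean difference −0.96 ± 0.212, SD, n = 8; −1.45 against chromosome 3 and −0.47 against chromosome 5; exact permutation p = 0.00781, adjusted 0.00781). Group means went from 3.51 ± 0.0763 at 0.25 h to 4.21 ± 0.0204 at 12 h on chromosome 4 (SD, n = 2), from 4.72 to 6.10 on chromosome 3 and from 3.83 to 4.89 on chromosome 5. The gap therefore widened (rho = −0.88, exact permutation p = 0.0103, adjusted 0.0165).

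The components moved unequally on chromosome 4. Contacts between the 2 extremes went from 0.497 ± 0.00535 of expectation at 0.25 h to 0.437 ± 0.00251 at 12 h, and contacts within the upper extreme, which lies in class 1, from 2.12 ± 0.0127 to 2.32 ± 0.0208 (SD, n = 2). In percent that gain, 9.23%, was the largest of 23 chromosomes, with chromosome 7 next at 9.01% and chromosomes 3 and 5 at 8.06% and 8.15%. In absolute terms the gain, 0.1957, ranked 3 of 23, behind chromosome 7 at 0.1989 and chromosome 3 at 0.1961. Within the lower extreme the values were 1.36 ± 0.0255 and 1.36 ± 0.0175, a difference smaller than the spread of the replicates. The share of trans contacts that class 1 bins made with the gene-rich chromosomes 16, 17, 19, 20 and 22 went from 8.99% ± 0.0120 at 0.25 h to 9.58% ± 0.0747 at 12 h (rho = 0.88, exact permutation p = 0.0103), and that of class 2 bins from 7.01% ± 0.118 to 6.89% ± 0.000550 (rho = −0.49, exact permutation p = 0.247). The trend of their difference did not pass the test (rho = 0.59, exact permutation p = 0.153). These are raw shares, not set against expectation. The share of class 1 bins went from 9.40% to 10.29% on chromosome 3 and from 11.3% to 12.4% on chromosome 5, and the observed over expected preference of chromosome 4 for the same 5 chromosomes, given with the trans contacts, fell.

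Once the short arm tip was left out, the shares of bins higher at 0.25 h were close in both classes. Of class 1 bins 36.5% were higher and 20.6% lower at 0.25 h, of class 2 bins 40.3% and 8.48%, and of class 1 bins outside the first 10 Mb 40.6% and 12.99%. The longest class 1 segment, chr4:1-9200000, was that tip, with 88.3% of bins lower. The next were chr4:73000001-81400000, with 46.5% of bins higher and 10.2% lower, chr4:36400001-42600000, with 18.2% higher and 26.4% lower, and chr4:52600001-58200000, with 19.6% higher and 23.6% lower. In class 2 the longest were chr4:58200001-68200000 (34.5% higher and 6.02% lower), chr4:130200001-138800000 (64.7% and 2.35%), chr4:178400001-183600000 (39.5% and 5.04%) and chr4:90200001-95000000 (55.8% and 5.00%).

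Domains of chromosome 4 were longer in the median than those of chromosomes 3 and 5, and no change in their number or in a boundary score over digestion passed the tests. Boundaries were minima of the insulation score, the log2 of contacts across a bin within 500 kb over the chromosome mean, in libraries thinned to equal numbers of contacts within 2 Mb. There were 214 and 220 boundaries at 0.25 h, 225 and 219 at 1 h, 219 and 217 at 3 h, then 212 and 211 at 12 h (rho = −0.61, exact permutation p = 0.120, adjusted 0.120). Both 12 h libraries had fewer than all others. Without 0.25 h replicate 1 the trend was stronger (rho = −0.89). Numbers below are per chromosome and not divided by length, and chromosome 4 had 9296 bins against 9665 on chromosome 3 and 8740 on chromosome 5. Chromosome 4 had 50.8 boundaries fewer than chromosome 3 (exact permutation p = 0.00781) and did not differ detectably from chromosome 5 (mean difference 0.125 ± 5.00, SD, n = 8, exact permutation p = 1).

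The median domain size of chromosome 4 was 760 and 720 kb at 0.25 h, 700 and 740 kb at 1 h, 760 and 750 kb at 3 h, then 760 and 760 kb at 12 h, with a mean over libraries of 744 kb. That of chromosome 3 was 658 kb and that of chromosome 5 was 681 kb. On all libraries added, chromosome 4 had 202 domains of 160 to 3640 kb with a median of 790 kb, against 680 kb for 253 domains of chromosome 3 and 710 kb for 204 of chromosome 5. The longest domains were chr4:27020001-30660000 (3640 kb), chr4:57880001-61180000 (3300 kb) and chr4:44660001-47380000 (2720 kb), of which 4.95%, 9.82% and 5.22% lay in class 1. The shortest, chr4:84400001-84560000 (160 kb), chr4:73920001-74120000 (200 kb) and chr4:2740001-2960000 (220 kb), lay wholly in class 1.

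No boundary of chromosome 4 passed the test between 0.25 h and 12 h. Limma called 0 of its 205 boundaries and 0 of 3629 in the genome (0.0%), with 2 and 244 at an unadjusted p under 0.05. The boundaries tested were those of all libraries added, so a boundary seen only at some times may not be among them. Scores of contacts that were not balanced again, in which bin coverage still counts, gave calls in 32.2% of those on chromosome 4 against 43.9% of all boundaries. The strongest boundary, chr4:160380001-160400000, scored −2.25 and −2.33 at 0.25 h, −2.37 and −2.22 at 1 h, −2.34 and −2.28 at 3 h, then −2.34 and −2.29 at 12 h. It lies next to the stretch of few contacts described above, and the part of that stretch in its score was not tested. The others of the 5 lowest were chr4:71440001-71460000 (−1.71 over all libraries), chr4:139920001-139940000 (−1.55), chr4:79860001-79880000 (−1.54) and chr4:13640001-13660000 (−1.37). Of boundaries called in a library, a mean of 79.5% had a counterpart within 40 kb in the other replicate of that time, 80.4% between 12 h and other times and 80.2% between times before 12 h.

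In trans, chromosome 4 had the lowest preference of all 23 chromosomes for a chosen set of gene-rich chromosomes over a second set. The preference was the log2 of observed over expected contacts with chromosomes 16, 17, 19, 20 and 22 minus that with a second set, chromosomes 2, 6, 13, 18 and X, so that many contacts with the second set lower it as well as few with the first. Chromosome 6, with 6.13 genes per Mb, is denser in genes than chromosomes 3 and 5. Chromosome 11, with 9.64 genes per Mb, is denser than chromosomes 16, 20 and 22 but was not in the first set. The preference of chromosome 4 was −0.48 and −0.45 at 0.25 h, −0.48 and −0.49 at 1 h, −0.49 and −0.50 at 3 h, then −0.55 and −0.56 at 12 h. The value of chromosome 4 was the lowest of 23 chromosomes in 8 of 8 libraries, and the 12 h pair lay below the others (rho = −0.98, exact permutation p = 0.000794, adjusted 0.00159; Pearson's r −0.92, −0.93 without the 0.25 h and −0.83 without the 12 h libraries). It was below chromosomes 3 and 5 by a mean difference of −0.26 ± 0.0172 (SD, n = 8; −0.12 and −0.41; exact permutation p = 0.00781, adjusted 0.00781), and this gap grew (rho = −0.88, exact permutation p = 0.0103, adjusted 0.0165). In the first run the growth of the gap did not pass the test (rho = −0.63, exact permutation p = 0.110).

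Of the 22 partners, chromosome 22 was met least, at 0.597 ± 0.0123 of expectation (SD, n = 8), then chromosome 19 at 0.745 ± 0.0166 and chromosome 17 at 0.769 ± 0.0169. Pairs of 1 Mb bins over 5 times expectation were left out in a setting chosen after the data were seen. Chromosome 22 then stood at 0.721, chromosome 19 at 0.740 and chromosome 17 at 0.772. With all pairs kept, chromosome 3 met chromosomes 22, 19 and 17 at 0.640, 0.755 and 0.835 of expectation, and chromosome 5 at 0.722, 1.31 and 1.00. Most met were chromosome 2 at 1.15 ± 0.00917, chromosome X at 1.14 ± 0.0113 and chromosome 7 at 1.12 ± 0.0118. Chromosomes 2 and X did not overlap with chromosome 19, but the ranges of X and 7 did overlap with each other. Chromosome 18, which is gene-poor, also stood below 1, at 0.877 ± 0.00531. So did chromosome 21, with 4.97 genes per Mb, at 0.783. Chromosomes 11 and 1, with 9.64 and 8.27 genes per Mb, stood above 1, at 1.07 and 1.09. Whether gene density or size of the partner went with these values was not tested.

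Over digestion 5 of the 22 partners changed after adjustment over the 22 tests, and 10 did so unadjusted. Contacts with chromosome 17 were 0.775 and 0.797 of expectation at 0.25 h, 0.774 and 0.775 at 1 h, 0.774 and 0.766 at 3 h, then 0.748 and 0.744 at 12 h (exact permutation p = 0.000794, adjusted 0.00873). Chromosome 20 fell from a mean of 0.832 to 0.780 (exact permutation, adjusted p = 0.0175) and chromosome 19 from 0.757 to 0.720 (exact permutation, adjusted p = 0.0454), a call lost when times were permuted within replicate numbers (adjusted p = 0.0891). Chromosome X rose from 1.13 and 1.12 at 0.25 h to 1.15 and 1.16 at 12 h (exact permutation, adjusted p = 0.00873) and chromosome 8 from a mean of 1.098 to 1.115 (exact permutation, adjusted p = 0.0175). The number of calls went from 2, without 3 h replicate 2 or without either 12 h library, to 11, without 0.25 h replicate 1. It was 9 without either 1 h library and 1 in the first run.

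**Figure D5:**
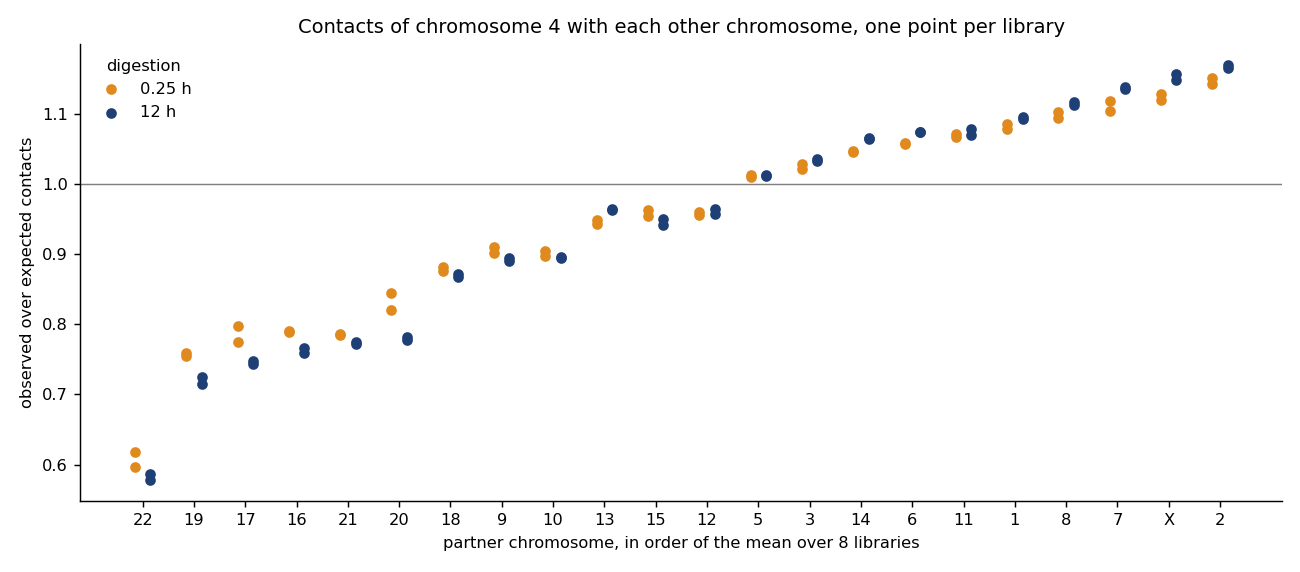
Observed over expected contacts of chromosome 4 with each of the 22 other chromosomes at 0.25 h and 12 h, with a point per library and partners in order of their mean over 8 libraries; the line at 1 marks the expectation from chromosome totals. Chromosome 22 is lowest with a mean of 0.597 and chromosome 2 highest with 1.15, and the 12 h points of chromosomes 17, 19 and 20 lie below those of 0.25 h.

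Single pairs of 1 Mb bins stood far above expectation, and the 3 densest relative to it lay at the edge of the centromere and at the tip of the long arm. The pair chr4:49000001-50000000 and chr1:142000001-143000000, both next to gaps at centromeres, had 3586 contacts in all, 123 times expectation, with 3.41 and 3.30 CPM of all contacts at 0.25 h, 3.59 and 3.74 at 1 h, 3.50 and 3.72 at 3 h, then 3.77 and 4.47 at 12 h. The pair chr4:190000001-191000000 and chr20:29000001-30000000 had 3061, 96.4 times expectation, with 4.31 and 7.93 CPM at 0.25 h, 3.44 and 3.92 at 1 h, 2.89 and 3.66 at 3 h, then 1.57 and 1.65 at 12 h. The pair of the same long arm tip with chr9:68000001-69000000 had 1952, 81.6 times expectation, and went from 2.58 and 4.23 CPM at 0.25 h to 1.27 and 1.38 at 12 h. The first of these 3 pairs was thus highest in a 12 h library and the other pairs were highest at 0.25 h. The next in order, chosen after its values were seen, joined the same long arm tip with chr21:10000001-11000000; it had 6139 contacts, 81.0 times expectation, and went the other way, from 5.45 and 5.46 CPM at 0.25 h to 6.81 and 7.14 at 12 h. Pairs inside the long arm, also chosen after their values were seen, reached 47.7 times expectation (chr4:119000001-120000000 with chr1:243000001-244000000, 1156 contacts) and 41.8 times (chr4:132000001-133000000 with the same bin of chromosome 21, 1187 contacts). Repeated sequence shared by both ends can place reads wrongly in such regions, and its part was not tested. Among pairs of 1 Mb bins with over 20 expected contacts, chromosome 4 had 84 over 5 times expectation, holding 0.394% of its trans contacts. Chromosome 3 had 1150 (4.92%) and chromosome 5 had 255 (1.05%).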

How the data were processed

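Hi-C contact maps of 8 K562 libraries (2 replicates at each of 4 HindIII digestion times) were analysed at 20 kb from the second run, and those of the first run at 50 kb served as an alternative. Per the submitters' processing notes HiC-Pro 2.11.1, Bowtie2 2.3.4.1 and genome build hg19 were used. The deposited values were a balanced contact signal per pair of bins, scaled by the authors so that all bins of a map have equal totals. Each signal was turned back into whole contacts (100% came within 0.01 of a whole number), since balancing removes differences in coverage. The scripts were tested on simulated data.

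Bin coverage (log2 counts-per-million (CPM) of contacts leaving the bin, prior count 0.5, at least 50 contacts per bin on average, which dropped 0 bins), self-contact ratios and insulation scores were fitted over chromosomes 1 to 22 and X with limma 3.58.1 (R 4.3.3) and adjusted by Benjamini-Hochberg at 0.05. Chromosome values were tested by exact permutation over libraries in Python 3.11.15. Insulation minima needed a prominence of 0.2 in libraries thinned to 30351286 contacts within 2 Mb. Expected trans contacts between chromosomes came from the chromosomes' trans totals, fitted to all margins. For pairs of 1 Mb bins the expectation was the product of both bins' trans totals over the sum of all trans totals, without that fit. Only pairs with over 20 expected contacts in all libraries added were ranked, counted or left out as dense.

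Same-numbered libraries deviated together, with correlations from 0.113 to 0.253 over all bins in each pair of times. The main trend tests and limma fits took no account of replicate number, which entered as a block in alternatives only. The members and measures were chosen with earlier results of these data known. Regions were named by rule: the 5 called bins with the highest and the lowest log2 difference (3 for self-contacts) whose 0.25 h and 12 h libraries did not overlap, the 5 lowest boundaries, the 3 longest and shortest domains, the 4 longest segments per class, the 3 most and least met chromosomes and the 3 densest trans pairs. Alternatives changed the denominator, window, scaling, run, replicate block and the libraries used. No gene is named for an interval, because an hg19 annotation was not used here.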

Additional observations from a re-analysis of the deposited data

How the results depend on the processing

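Of 28 results under 372 alternatives in all, 15 results kept their direction and their side of p = 0.05 (exact permutation, unadjusted) or stayed within 1.5 times their count throughout; the alternatives that left out dense pairs, the first 10 Mb of the short arm or centred the self-contacts, or joined another setting to the replicate block, were chosen after the data were seen. Without self-bin contacts the cis share trend was −0.68 and that of its difference 0.10, and on the balanced signal the former was −0.73; with times permuted within replicate numbers the cis share trend passed in both settings (exact permutation p = 0.0347 and 0.0174), while the trend of its difference and both decay slope calls lost in the second run stayed lost; the first run and left-out libraries were not run with the block. The first run gave −0.10 for the trend of the far cis difference (a reversal), 0.73 for the far cis trend and for that of the decay slope difference, −0.63 for that of the trans preference difference, 1 partner and 28.2% of coverage bins called (27.5% of all bins). Over 1 to 30 Mb the decay slope trend was −0.15 and that of its difference −0.93, and on the balanced signal the latter was 0.68. Trans contacts only gave −0.71 for the coverage share difference and 5.82% of bins called (6.26% of all bins). With self-bin contacts included the median coverage difference was −0.0181. Centring gave 24.1% of bins called for self-contacts, boundary scores without balancing 32.2% called (25.8% of all bins and 43.9% of all boundaries), and leaving out dense pairs 9 partners. Leaving out each library in turn gave −0.89 to −0.43 for the boundary number trend, 0.68 to 0.90 for the far cis trend, 0.75 to 0.92 for that of its difference, 0.68 to 0.97 for that of the decay slope difference and 2 to 11 partners.

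With the replicate number as a block limma called 57.8% of coverage bins (60.4% of all bins), 69.0% for self-contacts (67.7% of all bins) and 0 boundaries (0.0% of all), with 2 and 248 boundaries at an unadjusted p under 0.05, and 4 partners passed. Among these 28 results the block changed no other call. Steps between neighbouring times, of coverage and of self-contacts, were not fitted with the block. Among the distance classes, the trends of the shares at 10 to 20 Mb (exact permutation p = 0.0825) and 20 to 50 Mb (0.0548) had p = 0.0347 and 0.0174 with times permuted within replicate numbers. A median of 152 trans contacts per bin limits tests on trans contacts alone. HindIII site density, copy number and mappability were not analysed here, and all libraries are of the same line.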

Other observations

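Some segments of chromosome 4 met each other often across very long distances. These pairs were picked out after their values were seen, and no test was run on them. Among 43152 pairs of 500 kb bins that lay over 20 Mb apart, 277 had over 3 times the mean contacts of pairs at their distance in all libraries added, where the median pair had 0.923 times that mean. The strongest pair was chr4:140000001-140500000 and chr4:186000001-186500000, with 564 contacts, 5.69 times the mean of 275 pairs 46 Mb apart. It held 63 and 44 contacts at 0.25 h, 57 and 39 at 1 h, 82 and 54 at 3 h, and 112 then 113 at 12 h, so it was present in each library. The bin chr4:79500001-80000000 met both of these ends as well, at 5.64 times the mean with the farther, over 106.5 Mb (125 contacts), and at 5.60 times with the nearer, over 60.5 Mb (303 contacts). All of these bins lay wholly in compartment class 1. The classes come from the same cis contacts of all libraries added, so this is not a separate observation. The boundaries chr4:79860001-79880000 and chr4:139920001-139940000 lie in or next to these bins. How often a boundary would lie so near by chance was not tested. The ratios to the mean at a distance take no account of bin coverage. No count of such pairs is given for the chromosomes used for comparison.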
